A study of Mus musculus with 6 samples.

Results

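The transcription factors that build the trophectoderm, the outer cell layer of the blastocyst that forms the placenta, were followed in mouse embryonic stem cells depleted of the long noncoding RNA Panct1. The set has 10 genes, Cdx2, Eomes, Gata2, Gata3, Tfap2a, Tfap2c, Tead4, Elf3, Elf5 and Hand1. It was listed by gene name, but with earlier results of these data known. Every probe set annotated to exactly 1 of these genes was taken, which gave 20 of the 45037 probe sets tested; 8 genes had several probe sets, Gata3 and Elf3 had 1 each, and no probe set combined a member with another gene. All samples were Oct4-Gip embryonic stem cells, which carry a green fluorescent and drug resistance reporter under Oct4 regulatory sequence and were kept in serum and LIF. For each sample, 60000 cells were transfected with 800 ng of esiRNA, an enzymatically cut pool of short interfering RNAs, and RNA was taken after 72 hours. The 3 Panct1 knockdown arrays had received esiRNA against Panct1, and the 3 Luciferase control arrays esiRNA against Luciferase, which mouse cells do not carry. Both groups share the line, the medium and the transfection, and the labels name 1 line and no untransfected group.

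All values below are log2 RMA signals of Affymetrix Mouse 430 version 2 arrays, and differences are knockdown minus control on that scale, so a difference of 1 is a doubling. Signals of different probe sets cannot be compared as abundances. A signal was called dim where its group mean was under the first quartile of all arrays, which ranged from 4.65 to 4.70; array medians were 6.07 to 6.09. Arrays correlated at 0.997 to 0.998 within a group and 0.991 to 0.993 between groups. The depletion of Panct1 itself was not assessed, because no probe set is named for it in the table used here. The markers of embryonic stem cells were well above dim in both groups, with 0 of 10 measured dim in either. Of the 10, 6 were lower in knockdown and 0 higher at a limma adjusted p under 0.05, against 11.3% and 12.9% of all genes. Array RNA cannot tell fewer cells expressing a gene from less RNA per cell.

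In the embryo, the trophectoderm program starts when outer cells, with Hippo signalling low, let the coactivator YAP reach Tead4, a DNA-binding protein of the TEAD family. Tead4 and Gata3 then act upstream of Cdx2, the caudal homeobox factor that represses the Oct4 program in these cells. Eomes, Elf5 and Tfap2c join Cdx2 in keeping trophoblast stem cells as they are, and Gata2 and Hand1 act in later trophoblast, including giant cells. Tfap2a and Elf3 are known more widely from ectoderm and other epithelia. Embryonic stem cells hold this program down, in part through Oct4.

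To show what the members with RefSeq promoters look like at the start of the gene, the windows from 250 bases before to 50 bases after the annotated start are printed for Cdx2, Eomes and Gata3, the members past the threshold that the promoter table holds (RefSeq, GRCm38.p6). Of the 10 members, 7 were matched, with 10 windows; Tfap2c, Tead4 and Hand1 were not. The windows lie at chr5:147307200-147307499 on the minus strand for Cdx2, chr9:118477939-118478238 on the plus strand for Eomes and chr2:9878551-9878850 on the minus strand for Gata3, and each is read in the gene's direction. Capitals mark matches, on either strand, to 5 short motifs. These are the octamer ATGCAAAT of POU factors such as Oct4, GGAATG of TEAD factors, GCCNNNGGC of AP-2 factors (the family of Tfap2a and Tfap2c), AGATAA of GATA factors and TTTATG of CDX factors.
Cdx2: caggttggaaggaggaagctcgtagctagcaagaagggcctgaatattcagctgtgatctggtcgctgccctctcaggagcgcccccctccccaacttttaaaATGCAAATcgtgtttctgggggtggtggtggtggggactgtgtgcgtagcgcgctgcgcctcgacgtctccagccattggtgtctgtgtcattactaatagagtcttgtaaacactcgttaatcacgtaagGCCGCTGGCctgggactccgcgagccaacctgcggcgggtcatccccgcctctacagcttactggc
Eomes: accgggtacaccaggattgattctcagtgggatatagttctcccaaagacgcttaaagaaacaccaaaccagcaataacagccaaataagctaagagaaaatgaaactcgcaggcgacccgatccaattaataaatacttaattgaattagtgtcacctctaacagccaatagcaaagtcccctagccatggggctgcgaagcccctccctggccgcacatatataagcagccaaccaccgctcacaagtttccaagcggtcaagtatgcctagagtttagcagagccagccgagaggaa
Gata3: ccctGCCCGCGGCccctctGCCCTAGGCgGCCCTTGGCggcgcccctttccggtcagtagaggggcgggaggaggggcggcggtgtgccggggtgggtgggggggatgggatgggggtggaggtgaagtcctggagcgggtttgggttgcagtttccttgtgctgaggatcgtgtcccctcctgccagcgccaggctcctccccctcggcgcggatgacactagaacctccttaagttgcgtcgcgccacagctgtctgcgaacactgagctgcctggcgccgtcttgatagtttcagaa

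The Cdx2 window held 1 octamer, at 147 to 140 bases before the start, and 1 AP-2 match, at 16 to 8 bases before it. The Gata3 window held 3 AP-2 matches and the Eomes window held 0 matches to any of the 5 motifs. The octamer was added to the search after the sequences had been seen; it occurs in 1.74% of the 32851 promoter windows of that length and in 2 of the 10 member windows, the other being that of Elf3. AP-2 matches occur in 16.6% of all windows and in 3 member windows, TEAD matches in 14.7% and in 3, CDX matches in 11.9% and in 2, and GATA matches in 11.2% and in 0. Base composition differs between the printed windows, at 67.3% G and C for Gata3, 57.3% for Cdx2 and 47.3% for Eomes. These matches describe letters and no binding was measured.

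Of the 20 probe sets, 10 were higher in Panct1 knockdown and 0 were lower at an adjusted p under 0.05 (limma, Benjamini-Hochberg over all probe sets), against 7.82% of all probe sets called higher and 6.76% called lower, 14.6% in either direction. At an unadjusted p under 0.05 the counts were 11 and 0, against 13% and 13.8% of all probe sets. The 10 calls were every probe set of Cdx2, Eomes, Gata3, Tfap2c and Tead4, and none of Gata2, Tfap2a, Elf3, Elf5 or Hand1, so that no gene had probe sets on both sides of the threshold. The median difference over the 20 was 0.31, and over all probe sets it was -0.02. For 13 of the 20 the knockdown arrays all lay above the control arrays, against 14.2% of all probe sets; 0 lay entirely below and 7 overlapped. Taking the brightest probe set of each gene, 5 of the 10 genes were higher and 0 lower, where 12.9% and 11.3% of 18193 genes were. The called differences ran from 0.35 to 1.00, and 5 of the 10 reached 1.5-fold. Without Luciferase control replicate 1 the count fell to 8 probe sets, the lowest on leaving out any array (8 to 10).

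**Figure D1:**
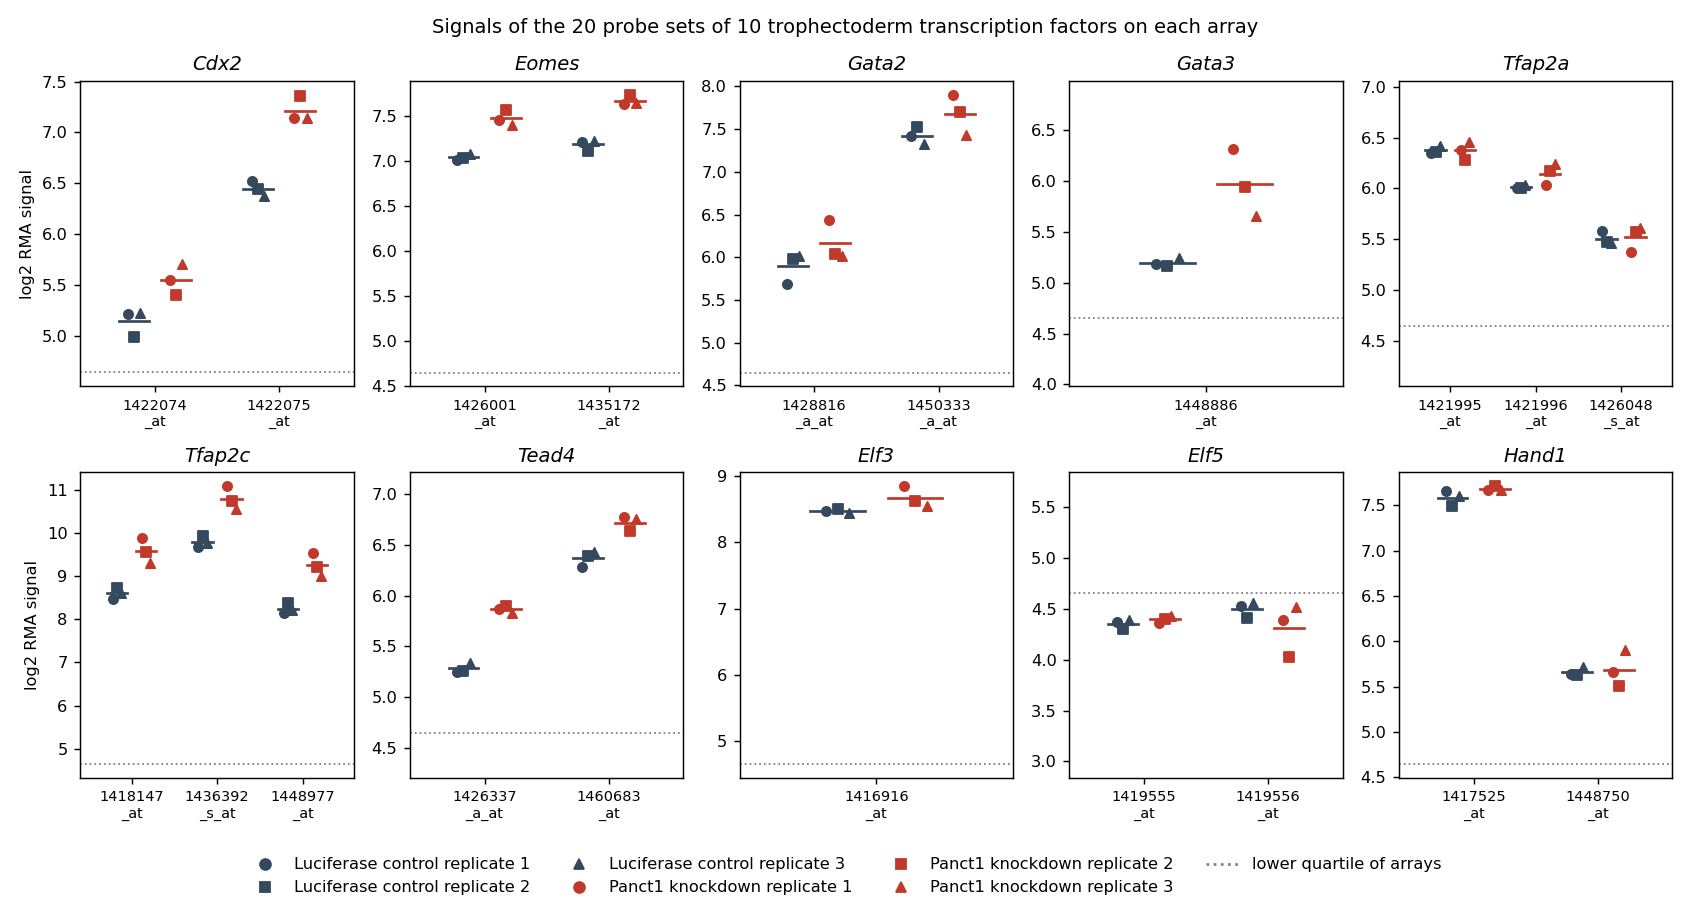
Log2 RMA signal (y axis, with its own range in each panel) of each probe set (x axis) on the 3 Luciferase control arrays (dark) and the 3 Panct1 knockdown arrays (red). Symbols give the replicate number, short lines the group means and the dotted line the lowest array lower quartile of 4.65; the red points lie above the dark ones for every probe set of Cdx2, Eomes, Gata3, Tfap2c and Tead4, and both Elf5 probe sets lie under the dotted line.

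Tead4, the TEAD family member needed for trophectoderm to form, was read by a pair of probe sets. Probe set 1426337_a_at gave 5.25, 5.26 and 5.34 in controls 1 to 3 and 5.87, 5.90 and 5.83 in knockdowns 1 to 3. These knockdown arrays lay within 0.07 of each other and at least 0.49 above the highest control. The difference was 0.58 (SE 0.07, 95% interval 0.44 to 0.73; limma adjusted p = 5.95e-04), just under 1.5-fold. Probe set 1460683_at gave 6.28, 6.39 and 6.43 in controls and 6.77, 6.63 and 6.75 in knockdowns, with the groups again apart. It rose 1.27-fold, by 0.35 (SE 0.07; limma adjusted p = 0.0139), and its call was lost without Luciferase control replicate 1 (difference 0.31, adjusted p = 0.061).

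Gata3, the zinc finger factor that acts beside Tead4 upstream of Cdx2, had 1 probe set. Its signals were 5.18, 5.16 and 5.24 in controls and 6.31, 5.94 and 5.65 in knockdowns. The controls were nearly alike while the knockdown arrays spread over 0.66, with replicate 1 highest and replicate 3 lowest. Gata3 rose 1.71-fold, by 0.77 (SE 0.14, 95% interval 0.45 to 1.10; limma adjusted p = 0.00782). Across 16 other settings its difference ranged from 0.60 to 0.93 and its adjusted p in limma from 0.0027 to 0.0338.

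Cdx2 was read by probe set 1422075_at at 6.52, 6.44 and 6.38 in controls and 7.14, 7.36 and 7.14 in knockdowns. All knockdown arrays were higher than all controls, and replicate 2 was the highest. Control arrays averaged 6.45 ± 0.07 (SD, n = 3) and knockdown arrays 7.21 ± 0.13, a difference of 0.77 (SE 0.08, 95% interval 0.58 to 0.96; limma adjusted p = 5.19e-04). Probe set 1422074_at of the same gene was dimmer, at 5.22, 4.99 and 5.23 in controls and 5.55, 5.40 and 5.71 in knockdowns, with replicate 3 the highest. It rose by 0.41 (SE 0.10; limma adjusted p = 0.0286). That call was lost without Panct1 knockdown replicate 1 (adjusted p = 0.0674) or 3 (0.0877) or Luciferase control replicate 1 (0.0599) or 2 (0.0853), with 0.0219 to 0.0877 over 14 settings. The mean of both Cdx2 probe sets rose by 0.59 (limma adjusted p = 2.23e-04 over genes).

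Eomes, the T-box factor of trophoblast stem cells that is also expressed in the primitive streak, had a pair of probe sets with close values. Probe set 1435172_at gave 7.22, 7.12 and 7.23 in controls and 7.64, 7.74 and 7.65 in knockdowns, and 1426001_at gave 7.02, 7.04 and 7.08 in controls and 7.46, 7.57 and 7.41 in knockdowns. Replicate 2 was the highest knockdown array on both, and the groups did not overlap. The rises were 0.49 (SE 0.07; limma adjusted p = 0.00195) and 0.43 (SE 0.07; adjusted p = 0.00381), the larger being 1.4-fold.

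Tfap2c, the AP-2 factor known as AP-2 gamma, which acts in trophoblast stem cells and in germ cell precursors, showed the largest differences among the members. Its brightest probe set, 1436392_s_at, gave 9.68, 9.92 and 9.76 in controls and 11.08, 10.74 and 10.55 in knockdowns. The lowest knockdown array was 0.63 above the highest control. It rose 2.00-fold, by 1.00 (SE 0.13, 95% interval 0.70 to 1.30; limma adjusted p = 0.00131). Probe set 1418147_at gave 8.46, 8.72 and 8.61 in controls and 9.87, 9.55 and 9.31 in knockdowns, a rise of 0.98 (limma adjusted p = 0.0018). Probe set 1448977_at gave 8.14, 8.37 and 8.22 in controls and 9.54, 9.20 and 9.0 in knockdowns, a rise of 1.00 (limma adjusted p = 0.00135). The 3 probe sets placed the arrays in one order, with knockdown replicate 1 highest and control replicate 1 lowest. The suffix of 1436392_s_at marks probes that can read several transcripts, but the other probe sets gave differences within 0.03 of it.

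Among the 10 called probe sets, knockdown replicate 1 was the highest array for 5 (Gata3, Tfap2c and Tead4 1460683_at), replicate 2 for 4 (Cdx2 1422075_at, Eomes and Tead4 1426337_a_at) and replicate 3 for 1 (Cdx2 1422074_at). The members that rose did not share a single highest array. The SD over 3 arrays was larger in knockdown than in control for 15 of the 20 probe sets, and for 49.6% of all probe sets. Why the knockdown arrays spread was not tested.

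Gata2, a relative of Gata3 that acts in trophoblast giant cells, did not pass. Probe set 1450333_a_at gave 7.42, 7.53 and 7.32 in controls and 7.90, 7.70 and 7.43 in knockdowns, so the lowest knockdown lay among the controls. Its difference was 0.25 (95% interval -0.02 to 0.52; limma adjusted p = 0.214). Probe set 1428816_a_at gave 5.69, 5.98 and 6.01 in controls and 6.44, 6.04 and 6.02 in knockdowns, which separates the groups by only 0.01. Its difference was 0.27 (95% interval -0.03 to 0.57; limma adjusted p = 0.227). Without Panct1 knockdown replicate 1 both differences were 0.14, and without Luciferase control replicate 1 that of 1428816_a_at was 0.17. Without Panct1 knockdown replicate 3 that of 1450333_a_at was 0.38 (limma adjusted p = 0.0505), and neither probe set passed with any array left out.

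Elf3, an epithelial ETS factor, was higher on each knockdown array than on any control, at 8.85, 8.63 and 8.55 against 8.47, 8.51 and 8.44. The lowest knockdown exceeded the highest control by 0.04. The difference of 0.20 (SE 0.09, 95% interval 0.005 to 0.40) did not pass (limma adjusted p = 0.175). Elf3 was the one member past an unadjusted threshold and not the adjusted one. It stayed between 0.12 and 0.27 over 16 settings, with an adjusted p of 0.107 to 0.409.

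Elf5, the ETS factor that is methylated and silent in embryonic stem cells and active in trophoblast stem cells, was dim on every array of both probe sets. Probe set 1419556_at gave 4.53, 4.41 and 4.56 in controls and 4.39, 4.03 and 4.52 in knockdowns, and 1419555_at gave 4.37, 4.30 and 4.39 in controls and 4.36, 4.40 and 4.43 in knockdowns. The groups overlapped on both, with differences of -0.19 (limma adjusted p = 0.387) and 0.04 (adjusted p = 0.745). At this signal a change in a low level could be missed. These were the only 2 of the 20 probe sets dim in both groups.

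Tfap2a, the AP-2 family member known as AP-2 alpha, was above dim but did not pass on any of 3 probe sets. The brightest, 1421995_at, gave 6.35, 6.36 and 6.42 in controls and 6.38, 6.28 and 6.46 in knockdowns. The arrays were interleaved and the difference was -0.003 (95% interval -0.17 to 0.16; limma adjusted p = 0.987). For 1421996_at and 1426048_s_at the differences were 0.14 (95% interval -0.03 to 0.30) and 0.02 (-0.17 to 0.20), with limma adjusted p-values of 0.29 and 0.931. The interval of 1421995_at lies wholly below that of every Tfap2c probe set. Per array, Tfap2c minus Tfap2a, brightest probe sets, was 3.41 ± 0.13 (SD, n = 3) on control arrays and 4.42 ± 0.31 on knockdown arrays, a change of 1.01. The corresponding change of Gata3 minus Gata2 was 0.52. For both of these 2 comparisons the groups did not overlap, and the two-sided exact permutation test gave p = 0.1 (adjusted p = 0.1), the smallest that 3 against 3 arrays allow. Each pair sets a called member against one that was not called, so a positive change largely follows from the choice of pair. The test could not have passed the threshold, so no conclusion is drawn from it.

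Hand1, a basic helix-loop-helix factor of trophoblast giant cells and of the heart, did not pass either. Probe set 1417525_at gave 7.66, 7.49 and 7.60 in controls and 7.67, 7.71 and 7.67 in knockdowns, which separates the groups by 0.01. The difference was 0.10 (95% interval -0.06 to 0.26; limma adjusted p = 0.429). The dimmer 1448750_at gave 5.64, 5.63 and 5.72 in controls and 5.66, 5.51 and 5.90 in knockdowns, with overlapping groups and a difference of 0.03 (95% interval -0.20 to 0.25; limma adjusted p = 0.909).

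**Figure D2:**
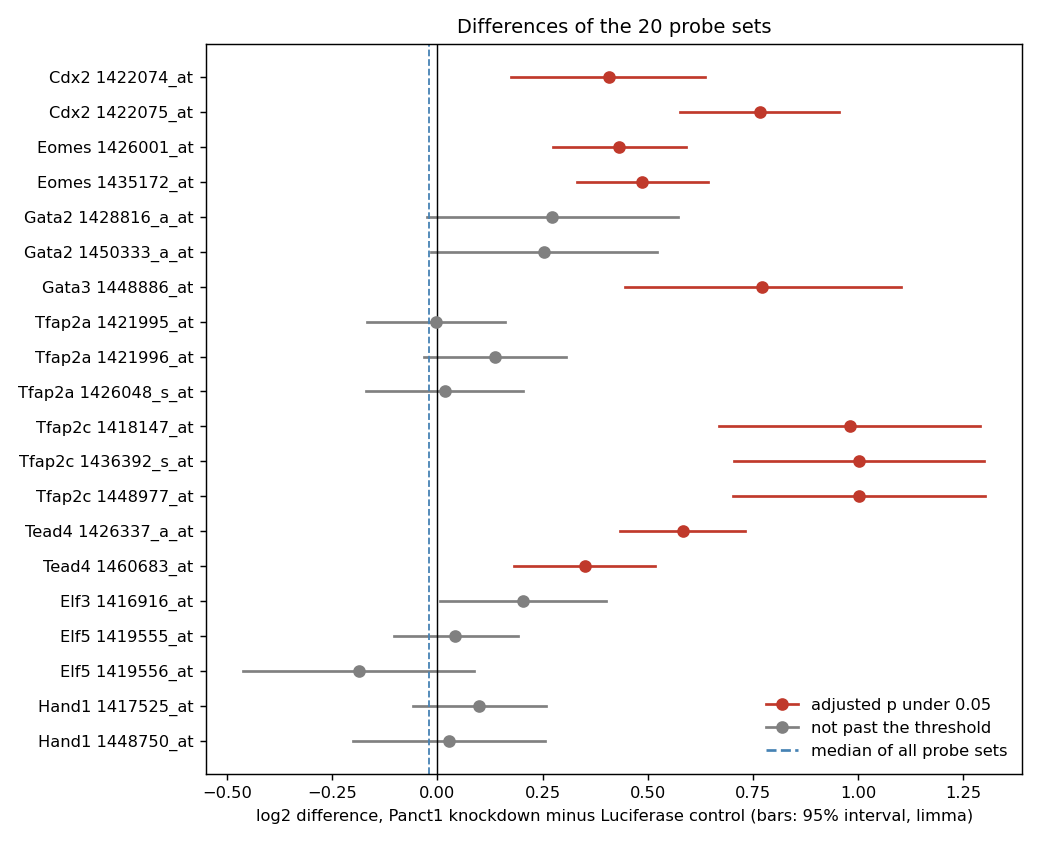
Log2 difference between Panct1 knockdown and Luciferase control (x axis) for each of the 20 probe sets (y axis), with 95% intervals from limma as bars. Red marks an adjusted p under 0.05 and grey the rest, and the dashed line is the median of all probe sets at -0.02; the 3 Tfap2c probe sets lie farthest right, near 1.00, and those of Tfap2a, Elf5 and Hand1 spread around 0.

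**Figure D3:**
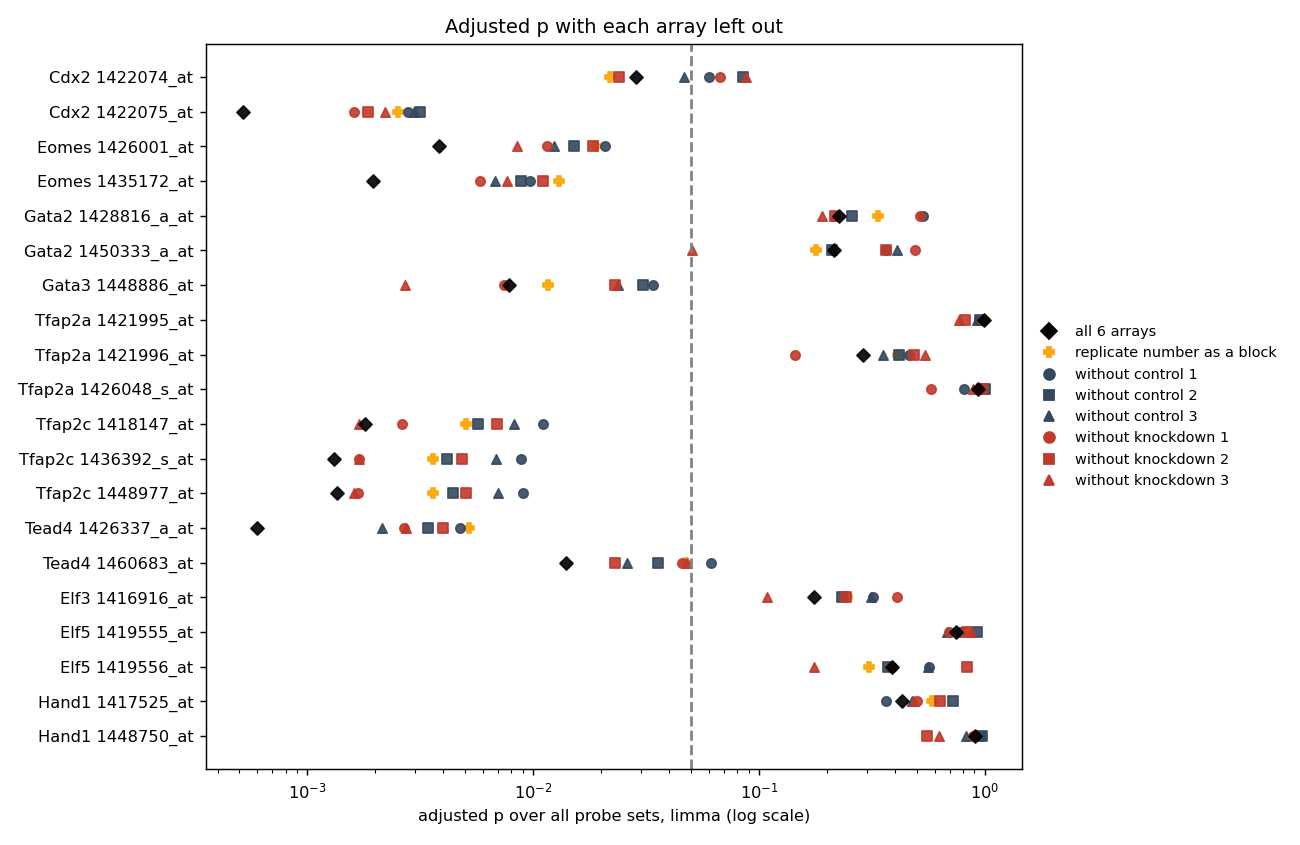
Adjusted p from limma over all probe sets (x axis, log scale) for each of the 20 probe sets (y axis), fitted to all 6 arrays, blocked on the replicate number, and after removing each array; the dashed line is at 0.05. Points of the called probe sets cross the line only for Cdx2 1422074_at and Tead4 1460683_at, and those of the other genes stay to its right.

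Genes around these factors were taken from lists of textbook members, each gene read by its brightest probe set in a limma fit over 18193 genes whose median difference was -0.02. In that fit 12.9% of all genes were called higher and 11.3% lower, the shares to set beside each list count below. Among regulators of trophectoderm 13 of 31 measured genes were higher and 5 lower, with a median of 0.19. Klf6, a Krüppel-like factor, rose by 1.11 (limma adjusted p = 3.82e-05), and Tead1, a close relative of Tead4, by 0.93 (adjusted p = 6.25e-05), although 1 of 2 probe sets for Tead1 differed by only 0.05. Fgfr2, the receptor through which FGF4 sustains trophoblast stem cells, rose by 0.85 (adjusted p = 4.12e-04) and Ets2, which acts in trophoblast stem cells, by 0.48 (adjusted p = 6.37e-04). For Fgfr2 2 of 3 probe sets passed and for Ets2 1 of 3, with their lowest differences at 0.08 and -0.04.

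The 5 regulators that fell, named after their values were seen apart from Esrrb among the stem cell markers, were Esrrb, Id1, Nf2, Rbpj and Bmp4. Of the Hippo pathway, also named after values were seen, the angiomotins Amotl2 and Amot rose by 1.06 (limma adjusted p = 6.92e-04) and 0.96 (adjusted p = 0.00185), and Wwtr1, which encodes the YAP relative TAZ, by 0.40 (adjusted p = 0.00174). For Amot 1 of 3 probe sets passed and the lowest differed by -0.17. Nf2, which keeps Hippo signalling on, fell by 0.29 (adjusted p = 0.025). The kinase gene Lats1 of the same pathway rose by 0.28 (adjusted p = 0.0171), but its second probe set was called lower, at -0.42, and the call was lost without Panct1 knockdown replicate 2 or Luciferase control replicate 1 or 2 (up to 0.0724). Yap1, which encodes YAP, rose by 0.20 (adjusted p = 0.036), a call lost with the replicate block and on leaving out any array (up to 0.127). In the fit over all probe sets 0 of 2 for Yap1 were called. Lats2 differed by -0.17 without passing, the lowest of its 6 probe sets. Of these, 1 was called higher and 0 lower, and the highest differed by 0.59. The calls of Nf2, Rbpj and Bmp4 were each lost when only 1 array was removed, for at least 2 choices of that array. The Nf2 call was also lost with the replicate block (limma adjusted p = 0.0543). Over 11 settings the limma adjusted p-values of Nf2, Rbpj and Bmp4 reached 0.0778, 0.0565 and 0.109. In the fit over all probe sets, 3 of 4 for Nf2, 3 of 3 for Rbpj and 0 of 1 for Bmp4 were called lower. Differences ran from -0.55 to -0.19 for Nf2 and from -0.32 to -0.28 for Rbpj.

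The epithelial and target genes of trophectoderm had the highest median of the lists described here, 1.25, with 16 of 24 higher and 0 lower. The simple-epithelium keratins Krt19 and Krt8 rose by 2.40 and 2.28, Dsc2, a desmosomal cadherin, by 2.01 and Cldn7, a tight junction claudin, by 1.77 (limma adjusted p from 8.43e-07 to 4.44e-06). Genes of differentiated trophoblast and placenta gave 3 of 17 higher and 2 lower, with a median of 0.07. The list held 25 genes, and Prl3d1, Prl2c2, Prl3b1, Syna and Synb were among those not matched by symbol to a gene of the fit. Nrk, a kinase gene of the placenta, rose by 2.27 (limma adjusted p = 2.88e-04), Peg10, an imprinted retrotransposon-derived gene needed for the placenta, by 0.87 (adjusted p = 0.00235) and Wnt7b by 0.38 (adjusted p = 0.00351). For Wnt7b 1 of 2 probe sets passed in the fit over all probe sets, with the lowest difference at 0.21. Cyp11a1, the first enzyme of steroid synthesis, which giant cells express, fell by 1.45 (adjusted p = 9.82e-06), although 1 of 3 probe sets passed and the highest differed by -0.11. Of the genes past the threshold, Tfeb lies outside the rule for names and was picked with its values known: it fell by 0.26 (adjusted p = 0.0187), a call lost without Panct1 knockdown replicate 2 or Luciferase control replicate 1 or 3 and with the replicate block (adjusted p up to 0.085).

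Among 19 paralogues of the members 2 were higher, Tead1 and Cdx4, and 3 lower, Gata1, Gata6 and, named after its values were seen, Tbx21, with a median of 0.05. Cdx4 rose by 0.39 from a dim 3.80 to a dim 4.19 (limma adjusted p = 0.0255), and the call was lost without Panct1 knockdown replicate 2 or Luciferase control replicate 1 or 3 (up to 0.093). Gata1, a blood factor, fell by 0.53 (adjusted p = 0.00738), and Gata6, a primitive endoderm factor, fell by 0.40 (adjusted p = 0.02; up to 0.0766 without Panct1 knockdown replicate 2 or Luciferase control replicate 1). Tbx21 fell by 0.25 (adjusted p = 0.0266), which did not hold when any array other than Luciferase control replicate 1 was removed or with the replicate block (up to 0.0814).

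Genes that hold the trophectoderm program down in embryonic stem cells were lower in 9 of 17 and higher in 0, with a median of -0.19. Sall1, a zinc finger partner of the pluripotency network, fell by 0.70 (limma adjusted p = 0.00149), Mbd3, a NuRD subunit, fell by 0.36 (adjusted p = 0.00318), and the Polycomb subunits Eed and Ezh2 fell by 0.33 (adjusted p = 0.00356) and fell by 0.32 (adjusted p = 0.00987). The second Eed probe set differed by 0.07. Over 11 other settings the count of lower genes ran from 4 to 9. Of the stem cell markers, Fgf4 fell by 0.92 (adjusted p = 7.26e-05), Esrrb fell by 0.50, Zfp42 fell by 0.42 and Klf4 fell by 0.32, the last not without Panct1 knockdown replicate 2 or Luciferase control replicate 1 or 3 (up to 0.0682). Only 1 of 3 Esrrb probe sets passed. The other markers were named after their values were seen. Pou5f1, which encodes Oct4, fell by 0.24 (limma adjusted p = 0.0324), a call lost in 6 of 11 settings. In the fit over all probe sets, the one used for the members, 0 of 1 for Pou5f1 and 0 of 3 for Utf1 were called. Utf1 fell by 0.20 (limma adjusted p = 0.0431), a call lost in 7 of 11. Sox2, Tdgf1, Dppa5a and Nanog differed by -0.14, -0.13, -0.003 and 0.15 without passing. The count of lower stem cell markers ran from 3 to 7.

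**Figure D4:**
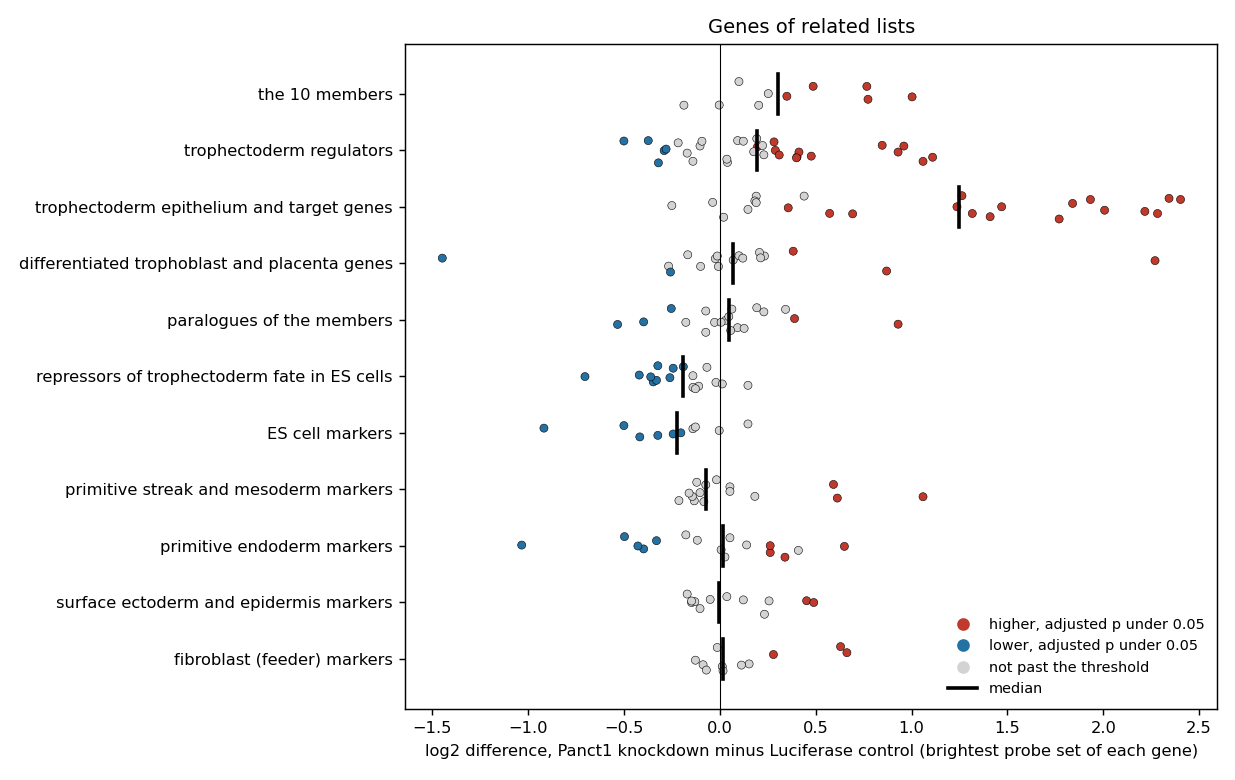
Log2 difference between Panct1 knockdown and Luciferase control (x axis) of each measured gene, by its brightest probe set, in the 10 members and 10 related lists (y axis); points are spread vertically for legibility and vertical bars are medians. Red points were higher and blue points lower at an adjusted p under 0.05; the epithelial and target genes lie farthest right with a median of 1.25, the members have a median of 0.30, and the repressor and stem cell marker lists have medians of -0.19 and -0.22.

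Several members are also expressed outside trophoblast, so markers of other cell types are given beside them. Of all genes in the same fit, 12.9% were called higher and 11.3% lower. Of 16 listed streak and mesoderm markers 15 were matched by symbol to a gene of that fit. T was not matched, so its signal was not read, and whether the array holds a probe set for it was not examined. Of the 15 measured 3 were higher, Fgf8 by 1.06 (limma adjusted p = 4.16e-04), Mixl1 by 0.59 (adjusted p = 0.00312) and Wnt3 by 0.61 (adjusted p = 0.0134; 0.0537 without Luciferase control replicate 1), and 0 were lower. Their summed log2 signal was 86.11 to 87.11 in controls and 87.34 to 88.84 in knockdown. Of 16 primitive endoderm markers 4 were higher and 5 lower, with sums of 116.82 to 117.28 and 115.25 to 117.66. Amn rose by 0.65 and Sparc by 0.34, while Lama1 fell by 0.50 and Hnf4a fell by 0.43 (limma adjusted p from 2.18e-04 to 0.00769). The others past the threshold were Gata6 and, named after their values were seen, Dab2 and Lamb1, which rose by 0.26 each, Sox17, which fell by 0.33, and Cubn, which fell by 1.03. On leaving out 1 array the call was lost in at least 4 of the 6 cases for Dab2, Lamb1 and Sox17 (adjusted p up to 0.0871, 0.133 and 0.0804 over 11 settings). The calls of Dab2 and Lamb1 were also lost with the replicate block (limma adjusted p of 0.0638 and 0.0794). In the fit over all probe sets, 2 of 2 for Sox17 were called lower, down to -0.98. For Gata6 2 of 3 were called lower, down to -0.72. Sox7 and Pdgfra, named after their values were seen, did not pass, but each had 1 probe set called lower. Their lowest differences were -0.48 and -0.46. For Sparc 1 of 3 was called higher, with the lowest at -0.11. For Dab2 1 of 4 and for Lamb1 0 of 4 were called higher. For Cubn 1 of 2 was called lower, with the smaller fall at -0.33.

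Of 12 surface ectoderm markers 2 were higher and 0 lower: Epcam, also an adhesion protein of stem cells, by 0.49 (limma adjusted p = 9.42e-04) and Grhl3 by 0.45 (adjusted p = 0.0118; 0.0502 without Luciferase control replicate 1). In the fit over all probe sets 1 of 2 for Epcam was called higher, with the lowest difference at 0.30. The sums were 84.61 to 85.30 in controls and 85.65 to 86.16 in knockdown. The epidermal keratins Krt5, Krt14 and Krt15 differed by -0.17, 0.23 and 0.26 without passing (limma adjusted p of 0.0924, 0.224 and 0.191), although 1 of 3 Krt14 probe sets was called higher and Krt14 passed with array weights (adjusted p = 0.0411). Krt1 and Krt10, which like Krt14 were named after their values were seen, differed by -0.10 and -0.15, also without passing. Of 11 fibroblast markers, which would read feeder cells, 3 were higher and 0 lower: Col5a2 by 0.66, Col3a1 by 0.63 from a dim 4.50 and Col1a1 by 0.28 (limma adjusted p of 2.59e-04, 0.00557 and 0.0246). In the fit over all probe sets 1 of 2 was called higher for each of these genes, with the lowest differences at 0.23, 0.11 and 0.08. The call of Col1a1 was lost with the replicate block and without Panct1 knockdown replicate 3 or any one Luciferase control (up to 0.0767). Their sums were 62.82 to 63.39 and 64.57 to 64.84. Of the other 8, which did not pass, Lum and Fap were dim in both groups, while Thy1, Dcn, Loxl1, Pdgfrb, Col1a2 and Postn were not (all but Postn named after their values were seen). Postn differed by 0.15 (limma adjusted p = 0.14; 0.0346 with array weights). The part of these cell types in the members' differences was not tested.

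For 3 members the genes with the closest profile over the 6 arrays were found, as the smallest root mean square distance between log2 values centred on each gene's mean; since the 2 groups set most of each profile, this describes size of difference and spread. Closest to Cdx2 were Stxbp5 and Axl, at 0.05 each, and Fam171b, at 0.06, with differences of 0.77, 0.75 and 0.72. Closest to Gata3 were Abcb1b at 0.03, Urgcp at 0.07 and Mbnl3 at 0.07, with differences of 0.79, 0.67 and 0.84, and closest to Tfap2c were Sh3pxd2a at 0.06, Crxos at 0.07 and Htra1 at 0.08, with differences of 0.98, 0.95 and 1.11. No member was among these 9 genes.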

How the data were processed

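RNA samples of transfected mouse embryonic stem cells, 6 in all, were hybridised to Affymetrix Mouse 430 version 2 arrays, 3 per group, grouped and numbered from their titles. The deposited values are log2 signals with 2 decimals; per the submitters' processing notes, GCOS 1.4 and RMA were used, and RMA corrects background, quantile-normalises and summarises probes, which pulls small differences of dim probe sets towards 0. Which arrays were normalised together is not given in the sources used here. Since no label states that replicates are separate cultures, p-values reflect the spread of these 6 arrays, which may be technical, and their number limits precision.

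After 64 control sets were left out, 45037 probe sets were tested with limma 3.58.1 (lmFit, eBayes; R 4.3.3), two-sided, on group alone, with Benjamini-Hochberg adjustment over all of them and a threshold of 0.05; the script was tested on simulated data. Symbols came from the platform table (34945 probe sets with 1 gene, 932 with several, 9160 with none) and were updated by gene ID for 34741. Lists were read in a second fit of the brightest probe set of each of 18193 genes. The rule for named genes takes all members, the 4 genes of each list with the smallest p, and the 3 closest profiles of Cdx2, Gata3 and Tfap2c. Members and lists were chosen with earlier results of these data known. Alternatives were a replicate block, median centring, array weights, repeated quantile normalisation, a trended robust prior variance, fewer probe sets, a 1.5-fold minimum, other probe set choices and leaving out each array.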

Additional observations from a re-analysis of the deposited data

How the results depend on the processing

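The count of 10 probe sets higher and 0 lower stayed at 10 and 0 with a replicate block, array weights, median centring, repeated quantile normalisation, a trended robust variance and without the dimmest probe sets, and was 8 and 0 of 15 without probe sets ending in _x_at, _s_at or _a_at. Leaving out 1 array gave 8 to 10. With a 1.5-fold minimum 5 remained, because the probe sets of Eomes and Tead4 and 1 of Cdx2 changed by less. Over all probe sets 6565 were called, 4266 without Luciferase control replicate 1 (4266 to 5574 on leaving out any array; the cause was not tested), 4692 with the replicate block and 2086 with the 1.5-fold minimum. The replicate block changed no call of a member. Same-numbered arrays did not deviate together from their group means (correlations of -0.158, -0.302 and -0.15), so the numbers were not taken as pairs. Arrays of different number gave correlations of -0.126 to 0.308, the highest for knockdown 2 with control 3. What those arrays may share was not tested. Over the 13 to 16 settings run for each, the member differences changed sign only for Tfap2a 1421995_at (-0.05 to 0.04), Tfap2a 1426048_s_at (-0.03 to 0.09) and Hand1 1448750_at (-0.08 to 0.12), which passed in none. The mean of the Tfap2a probe sets, counted among these settings, differed by 0.05. Settings for genes of the lists were chosen after seeing the data.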
